A study of Mus musculus with 753 samples.

Results

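The uHF-I cells are 115 of the 684 single mouse keratinocytes that the authors annotated. They were taken as every cell whose deposited identity was uHF-I, 1 of 3 upper hair follicle identities in that annotation, at all times and in both lineages. The other identities were IFE-B (basal interfollicular epidermis, 373 cells), OB (outer bulge, 121 cells), SG (sebaceous gland, 23 cells), uHF-II (15 cells), uHF-III (27 cells), IFE-DI (8 cells) and IFE-DII (2 cells). Cells were lin+, meaning tdTomato-positive progeny of cells in which Gata6 drove the recombinase, or lin-, without tdTomato. Sorted cells came from skin without a wound (day 0) or from full-thickness wounds of back skin that had healed for 6, 9 or 11 days.

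All groups carried the same alleles. The labels give the strain as Gata6EFGPCreERT2 Rosa26-fl/STOP/fl-tdTomato and the genotype as Cre (+/-) tdTomato (+/-), and every group, unwounded skin included, received 4-hydroxytamoxifen on the back skin, 1 week before wounding in the wound groups. The tdTomato mark therefore records Gata6 expression at the time of the drug, not at the time of sorting. The mice were adults, and the labels give no age in weeks. Wound cells were mixed with GFP-positive epidermal carrier cells that were sorted away afterwards, day 6 wounds came from pooled mice, and unwounded skin came from mice that also gave wounds of days 9 and 11. A set here is 1 lineage of 1 group of mice at 1 time, which gives 14 sets in 7 mouse sets. Replicate 1 of days 0, 9 and 11 forms the first batch (222 cells, 36 of them uHF-I). Replicate 2 with day 6 forms the second batch (462 cells, 79 of them uHF-I). Since day 6 cannot be split by mouse and day 0 shares mice with the late wounds, the p-values below measure the spread between these sets.

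The upper part of the hair follicle, the infundibulum and the junctional zone, connects the hair canal and the sebaceous duct to the surface epidermis. Its cells line a canal open to microbes, and differentiating cells of the duct and canal make the keratin Krt79 and a set of protease inhibitors and defensins. Gata6 is a transcription factor of this region and marks the cells that form the sebaceous duct.

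The identity was checked against its marker genes. The 5 genes fixed as markers were Krt79 (a keratin of the duct and infundibulum), Cst6 (cystatin E/M, an inhibitor of cathepsins and legumain), Defb6 (a beta defensin), Alox12e (an epidermal lipoxygenase) and Krt17 (a keratin of follicle and wounded epidermis). A cell was counted as having a gene at a value of 10 or more after its total was scaled to 1000000. The median uHF-I cell had 4 of the 5 markers, and 100 of 115 cells (87.0%) had at least 3. All 5 were present in 49 cells (42.6%), and 2 cells had none. Among the 569 other cells the median was 1 marker, and 129 (22.7%) had at least 3. That share was 2.48% in OB, 13.0% in SG and 20.6% in IFE-B cells, and it was higher than in uHF-I in the other upper follicle identities, with 15 of 15 uHF-II and 26 of 27 uHF-III cells. Markers of immune cells, fibroblasts, melanocytes and endothelial or muscle cells had a median summed level of 0 in uHF-I cells in both batches. Other cells had medians of 0 to 0.314, so the median does not set uHF-I apart. Fibroblast markers summed to 100 or more in 0 of 36 and 7 of 79 uHF-I cells, against 20 of 186 and 36 of 383 others. Immune markers did so in 1 of 36 and 3 of 79, against 3 of 186 and 17 of 383. The median uHF-I cell had 4865985 reads in the first batch and 2817461 in the second, against 4574592.5 and 2726557 in other cells. The lowest uHF-I cells had 990936 and 896056 reads, while the lowest other cells had 18 and 5.

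The sequences before the starts of Krt79, Defb6 and Alox12e are shown because these 3 of the 5 markers were higher in uHF-I cells on both ways of averaging used below and were present in the RefSeq promoter table used here (GRCm38.p6). Each line gives the 250 bases before the annotated start, read toward the gene, with the letters GATAA in capitals where they or their reverse complement occur. Krt79 lies on the minus strand (chr15:101940325-101940574), Defb6 on the plus strand (chr8:19225228-19225477) and Alox12e on the minus strand (chr11:70322531-70322780).
Krt79: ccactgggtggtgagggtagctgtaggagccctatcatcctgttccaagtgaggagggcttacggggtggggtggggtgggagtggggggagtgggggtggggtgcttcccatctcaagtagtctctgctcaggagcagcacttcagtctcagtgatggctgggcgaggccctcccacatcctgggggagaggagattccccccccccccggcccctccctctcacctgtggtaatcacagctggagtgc
Defb6: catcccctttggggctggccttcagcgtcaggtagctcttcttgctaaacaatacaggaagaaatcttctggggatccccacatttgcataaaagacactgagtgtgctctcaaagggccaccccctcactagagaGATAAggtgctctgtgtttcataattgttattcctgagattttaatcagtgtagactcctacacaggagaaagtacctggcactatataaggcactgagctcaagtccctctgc
Alox12e: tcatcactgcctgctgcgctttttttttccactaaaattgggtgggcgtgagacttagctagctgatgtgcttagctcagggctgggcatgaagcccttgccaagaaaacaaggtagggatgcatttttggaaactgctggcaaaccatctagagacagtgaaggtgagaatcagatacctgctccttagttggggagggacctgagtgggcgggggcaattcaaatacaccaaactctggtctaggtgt
The word GATAA, the core of GATA factor motifs, occurred 1 time in the Defb6 window and 0 times in those of Krt79 and Alox12e. It occurred on either strand in 6221 of 27025 promoters of that length (23.0%), so the match is a description of these letters.

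The first question was how common uHF-I cells were in each lineage. In lin+ cells of unwounded skin they made up 36.2% (17 of 47) and 37.0% (17 of 46) of the replicates. In lin+ wound sets they made up 28.0% on day 6 (26 of 93), 19.0% (8 of 42) and 25.0% (11 of 44) on day 9, then 18.8% (6 of 32) and 23.4% (11 of 47) on day 11. The lin- sets ranged from 3.57% (1 of 28, day 9 replicate 1) to 8.51% (4 of 47, day 11 replicate 2), with a median of 5.38% (5 of 93, day 6). The ranges of the lineages did not overlap. The lin+ share exceeded the lin- share of the same mouse set by 21.2 ± 7.43 percentage points (SD, n = 7), in 7 of 7 mouse sets (two-sided exact permutation test of signs, p = 0.0156, the smallest this design can give). The share tests treat the mouse sets as independent, although unwounded skin came from mice that also gave late wounds. The p-value is therefore too small for a statement about mice. Sorting fixed the number of lin+ and lin- cells, so these are shares within a lineage and not of the skin.

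The lin+ share was 22.8 ± 3.95% in wound sets (SD, n = 5) and 36.6 ± 0.556% in day 0 sets (n = 2), a difference of -13.7 percentage points. The highest wound set, at 28.0%, lay below both day 0 sets. The exact permutation test gave p = 0.0952, the smallest possible with 5 sets against 2, so the design could not pass 0.05. In lin- sets the share was 5.62 ± 2.07% in wounds and 5.27 ± 1.57% on day 0, which differed by 0.350 percentage points (exact permutation p = 0.952). The lineage gap was 17.2 percentage points in wounds and 31.3 on day 0, a difference of -14.1 (exact permutation p = 0.0952, again the smallest possible).

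**Figure D1:**
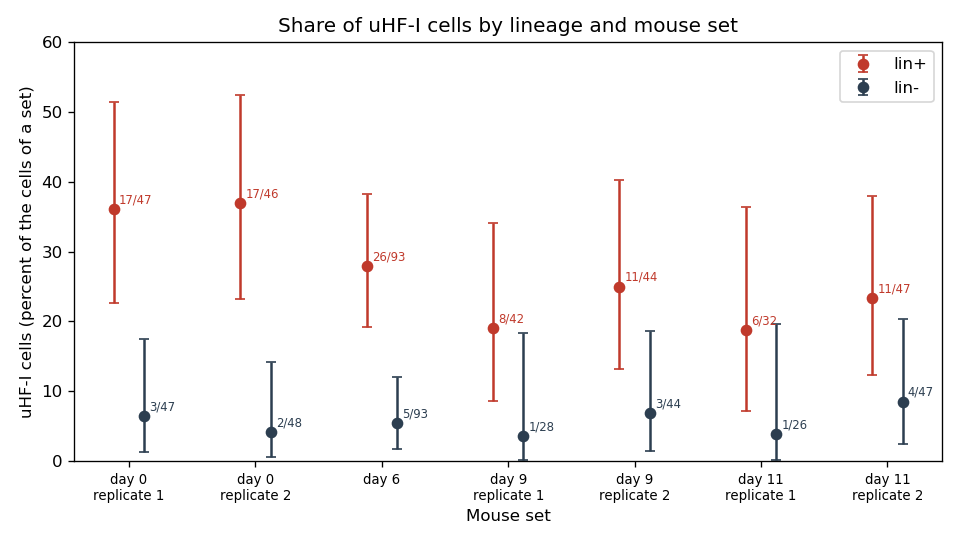
Percent of the cells of each set that were uHF-I (vertical axis) by mouse set (horizontal axis), lin+ in red and lin- in dark blue, with exact 95% binomial intervals that cover counting error only and the cells counted beside each point. Every lin+ point, from 18.8% to 37.0%, lies above every lin- point, at 8.51% or less.

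The single markers were then compared set by set, over the 11 sets that held at least 3 uHF-I cells. These genes helped to define the identity, so the values describe it and were not tested. Defb6 was present in 33.3% to 100% of uHF-I cells of a set (median 81.8%) and in 2.44% to 57.6% of the other cells (median 30.8%). Alox12e was present in 33.3% to 100% (median 75.0%) against 4.55% to 50.0% (median 34.3%). For both genes the share of cells and the mean level were higher in uHF-I in 11 of 11 sets. Krt79 was present in 60.0% to 100% of uHF-I cells (median 82.4%) against 9.09% to 69.7% (median 29.3%), with a larger share in 11 of 11 sets and a higher mean in 10. Cst6 was the least uniform marker, at 16.7% to 94.1% (median 62.5%) against 6.82% to 63.6% (median 26.9%), with a higher mean level in 7 of 11 sets. Krt17 separated the cells least, since it was present in a median of 100% of uHF-I cells and 74.4% of others.

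Gata6 RNA itself was found in few uHF-I cells. It was present in 0 to 29.4% of the uHF-I cells of a set (median 16.7%) and 0 to 25.0% of the others (median 7.46%), with a larger share in 5 of 11 sets. In the first batch 5 of 36 uHF-I cells and 14 of 186 others had it, and in the second 13 of 79 and 24 of 383. Over all cells of a batch the mean level was 85.9 against 24.2 and 35.0 against 4.77, past 2-fold in both batches. Of the uHF-I cells in cluster 2, 0 of 8 in the first batch and 0 of 14 in the second had Gata6, which allows shares of up to 37.5% and 21.4%.

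**Figure D2:**
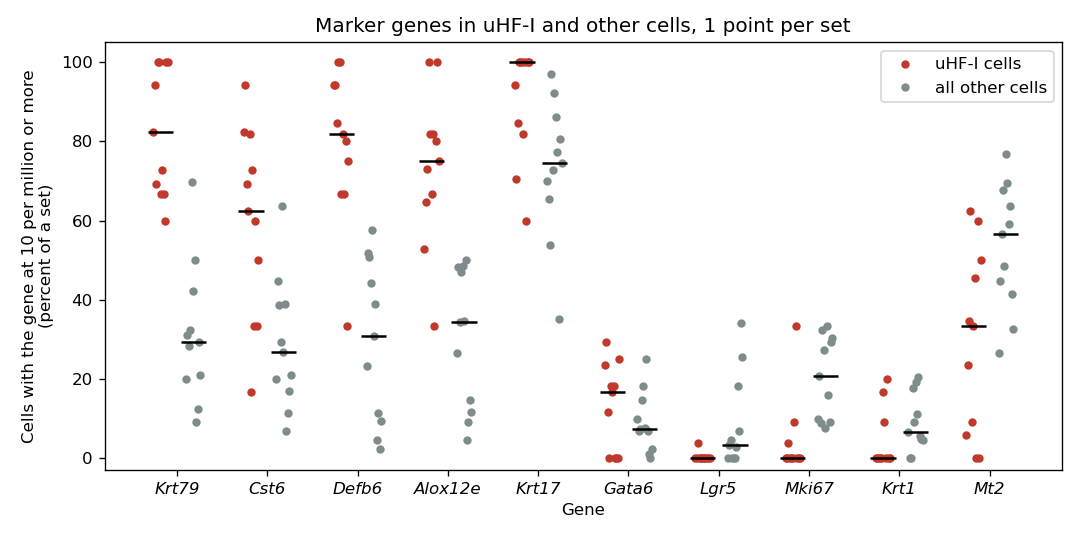
Percent of cells of a set with each gene at a level of 10 or more (vertical axis) for 10 genes (horizontal axis), uHF-I cells in red and all other cells in grey, with 1 point per set of at least 3 uHF-I cells and a bar at the median of the 11 sets. Defb6 (medians 81.8% and 30.8%), Alox12e (75.0% and 34.3%) and Krt79 (82.4% and 29.3%) lie higher in uHF-I cells, while Mki67 (0% and 20.7%) and Mt2 (33.3% and 56.7%) lie lower.

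The markers did not set uHF-I apart from the other upper follicle identities in the same way. A level is the mean over cells of a gene's value after the cell's total was scaled to 1000000, and it rests on reads in the first batch and length-scaled values in the second, so levels are set side by side within a batch. Krt79 had a level of 10878 in uHF-I, 29814 in uHF-II and 26456 in uHF-III cells of the first batch, and 3249, 8969 and 8865 in the second. Cst6 had 19283 in uHF-I, 18878 in uHF-II and 103574 in uHF-III cells of the first batch, and 5978, 9238 and 49265 in the second. Krt79 was thus lower in uHF-I than in both of the other upper follicle identities, in both batches. Alox12e was 4489 in uHF-I and 9005 in uHF-III cells of the first batch, and 1860 and 1914 in the second. Defb6 was 4552 in uHF-I, 871 in uHF-II and 3809 in uHF-III cells of the first batch, and 14690, 13617 and 26925 in the second, so its order changed between batches. Krt79 was also found in 85.7% and 81.2% of SG cells, but Defb6 was found in 0 of 7 and 0 of 16 of them, which allows shares of up to 42.9% and 18.8%. In OB cells Krt79 was found in 0 of 24 and in 1.03%.

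By the share of cells with Krt5, the basal partner keratin of Krt14, uHF-I as a whole lay between basal and differentiated identities. Krt5 was present in 55.6% and 64.6% of uHF-I cells in the first and second batch, in 90.1% and 84.8% of IFE-B cells, and in 20.0% and 18.2% of uHF-III cells. The uHF-I share joined unlike cells. It was 26.3% and 20.7% in uHF-I cells of the authors' cluster 3, and 87.5% and 91.1% in those of clusters 0 and 2. Krt14 was present in 100% and 93.7% of uHF-I cells. Krt15, a keratin of basal and bulge cells, was present in 61.1% and 72.2% of uHF-I, in 0 of 5 and 0 of 10 uHF-II and in 40.0% and 18.2% of uHF-III cells.

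Per kilobase of gene, which allows genes to be ranked, Apoe (apolipoprotein E) was the most abundant RNA of uHF-I cells in both batches, as it was in other cells. Defb6 ranked 3 and 5 in uHF-I against 177 and 35 in other cells, at 22340 and 14854 TPM (a share of all reads after dividing by gene length). Cst6 ranked 12 and 15 against 100 and 24, and Krt79 ranked 11 and 29 against 92 and 163. Ly6d, a surface protein of keratinocytes, ranked 6 and 2. Gata6 ranked 2291 and 3494.

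The whole table was then compared between uHF-I and all other cells. Differences were taken within each set and averaged within a batch (4 sets of the first batch and 7 of the second), and a gene was counted where it differed at least 2-fold in the same direction in both batches. Of 6587 genes, 23 were higher (0.349%) and 2148 lower (32.6%), and the median gene differed by -1.58 log2 in the first batch and -0.86 in the second. Means of few cells lie low on a log scale, and several sets held 3 to 8 uHF-I cells. With means taken over all cells of a batch, 184 of 6748 genes were higher (2.73%) and 589 lower (8.73%), with medians of -0.28 and -0.13. Both counts describe the identity and carry no test, because the cells were clustered on these genes, and both are given for each gene group below. All 24 genes named at the ends of the ranking within sets kept their direction when means were taken over all cells, and the count of higher genes was 36 without day 11 replicate 2.

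Among the genes higher in uHF-I, Defb6 ranked first within sets, with a log2 difference of 4.95 ± 2.79 (SD over sets, n = 4) in the first batch and 3.71 ± 4.01 (n = 7) in the second, with a single lin- set far above the others in each batch (9.10 and 12.5). Over all cells of a batch it differed by 4.69 and 2.39 and ranked behind Pla2g5, Eno3, Alox12e, Adig and Anpep. Alox12e was higher by 1.81 ± 0.39 and 2.43 ± 1.02, the steadiest of the leading genes in the first batch. Krt79 was higher by 2.64 ± 2.38 and 1.78 ± 1.46. Defb1, a second beta defensin, was higher by 1.73 and 3.03 and was present in 27.8% and 39.2% of uHF-I cells against 9.14% and 10.7% of others. Lratd1 was higher by 2.11 ± 2.05 and 1.44 ± 0.87, in 11 of 11 sets, and was present in 52.8% and 82.3% of uHF-I cells against 21.0% and 41.5%. The cystatin Cst6 (2.22 and 1.37) and Cstb, another inhibitor of cathepsins (1.80 ± 0.50 and 1.23 ± 0.76), were also past 2-fold within sets. Over all cells of a batch Cst6 differed by 2.51 and 0.87 and was no longer counted, and Cstb differed by 2.06 and 1.49.

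Other genes at the top of the ranking came from smaller numbers of cells. Anpep, a surface aminopeptidase, was found in 6 of 36 and 29 of 79 uHF-I cells against 12 of 186 and 46 of 383 others. Nebl, an actin-binding protein of the nebulin family, was found in 13 of 36 and 33 of 79 against 14 of 186 and 55 of 383. Cracr2b was found in 12 of 36 and 25 of 79 against 14 of 186 and 53 of 383. Pla2g2d, a secreted phospholipase, was found in 3 of 36 and 8 of 79 against 0 of 186 and 5 of 383. The rule also named Igfl3, Cgnl1 and Lyrm1, found in 3 to 13 uHF-I cells of a batch.

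Genes of cell division were among those lower in uHF-I. Of the list of mitosis genes, 15 of 15 measured were lower by at least 2-fold, within sets and over all cells alike (medians -4.04 and -4.58 within sets). Over all cells, each of them had a level under 10 in uHF-I in at least 1 batch. They passed the filter there through the other cells and could not have been counted as higher. Ccnb2, a mitotic cyclin, was found in 0 of 36 uHF-I cells and 1 of 79, against 30 of 186 and 69 of 383 other cells. Mki67, the proliferation marker, was found in 1 of 36 and 2 of 79 against 33 of 186 and 69 of 383. Ube2c, Cdc20, Cenpa, Cdca3, Cdca8 and Spc24, which act in chromosome segregation, were each found in at most 4 uHF-I cells of a batch. A summed level of 100 or more over the 16 listed mitosis genes was reached by 3 of 36 and 10 of 79 uHF-I cells. Among other cells 53 of 186 and 105 of 383 reached it, and their medians were also near the floor (0.414 and 0.084). Replication genes were lower in 13 of 15 within sets but in 4 of 15 over all cells, so this list depended on the averaging.

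Krt1, a keratin of differentiating interfollicular epidermis, was found in 1 of 36 and 2 of 79 uHF-I cells against 25 of 186 and 19 of 383. Serpinb2, a serine protease inhibitor of suprabasal cells, was found in 0 of 36 and 2 of 79 against 29 of 186 and 70 of 383. Both genes were scarce in uHF-I, and the mean of Krt1 and of Serpinb2 was not higher in uHF-I in any of the 11 sets. The metallothioneins, small metal-binding proteins, were lower in 3 of 3 on both ways of averaging, with Mt2 in 25.0% and 31.6% of uHF-I cells against 58.1% and 54.6%. Outer bulge genes were lower in 8 of 13 on both ways, among them Cd34, found in 0 of 36 and 1 of 79 uHF-I cells, and Lgr5, a receptor of bulge stem cells, found in 0 of 36 and 1 of 79 against 15 of 186 and 41 of 383.

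Of the list of upper follicle and sebaceous duct genes, which holds the 5 markers, 4 of 12 were higher within sets and 6 of 12 over all cells, and 0 were lower. Of the antimicrobial and protease inhibitor list, which shares Defb6 and Cst6 with it, 4 of 9 were higher within sets and 3 of 9 over all cells, where 1 was lower. Sebaceous gland genes were lower in 7 of 12 within sets and 5 of 11 over all cells. Basal keratins, integrins and hemidesmosome genes were lower in 6 of 12 within sets and in 1 of 13 over all cells. Suprabasal genes of the interfollicular epidermis were lower in 3 of 13 and 2 of 13.

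The number of genes found in a cell was compared after each cell was thinned to 500000 reads, which 662 of the 684 cells reached. The median uHF-I cell of a set had 1224 to 2796 genes and the median other cell 1397.5 to 3276 over the 11 sets, and uHF-I cells had fewer in 8 of them. Before thinning the batch medians were 1941.5 and 2512.0 genes in uHF-I against 2469.5 and 2593.0. The part of this difference in the counts of lower genes was not tested.

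The uHF-I identity spanned several of the authors' expression clusters. Cluster 3 held 48 of the 115 cells (41.7%), cluster 0 held 39 (33.9%), cluster 2 held 22 (19.1%) and cluster 1 held 6 (5.22%), while clusters 4 and 5 held none. Seen from the clusters, uHF-I cells were 41.7% of the cells of cluster 3, which also holds most uHF-II and uHF-III cells, 19.9% of cluster 0, 15.1% of cluster 2 and 4.05% of cluster 1. At least 3 of the 5 markers were present in 47 of 48 uHF-I cells of cluster 3, in 32 of 39 of cluster 0, in 17 of 22 of cluster 2 and in 4 of 6 of cluster 1. The makeup by time is a description, since clusters were drawn on the same cells. Among lin+ uHF-I cells, cluster 3 held 9 of 17 and 9 of 17 on day 0, 7 of 26 on day 6, 3 of 8 and 7 of 11 on day 9, and 3 of 6 and 2 of 11 on day 11. Cluster 0 held 6 of 34 lin+ uHF-I cells of unwounded skin (17.6%) and 18 of 36 of late wounds (50.0%), and cluster 2 held 9 of 34 (26.5%) and 2 of 36 (5.56%).

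**Figure D3:**
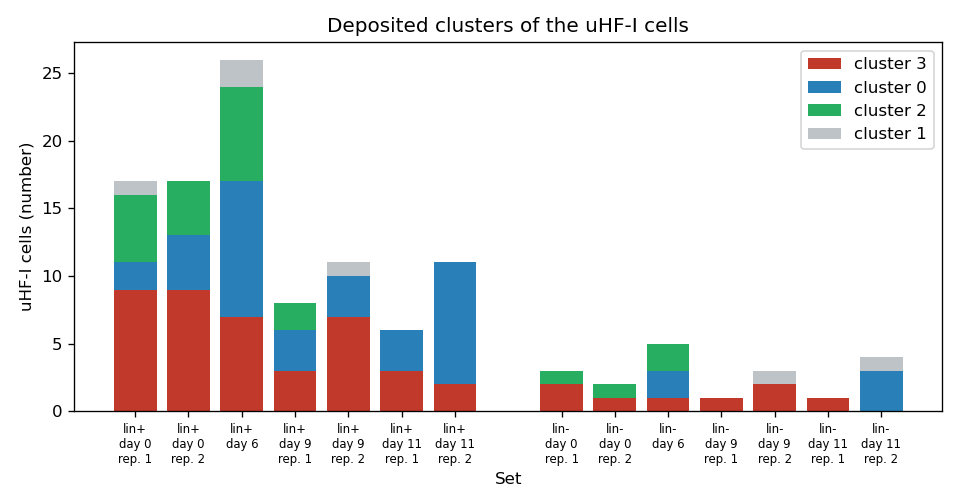
Number of uHF-I cells (vertical axis) in each set (horizontal axis, lin+ on the left and lin- on the right), stacked by the authors' clusters 3, 0, 2 and 1. Cluster 3 holds 9 of 17 lin+ cells in both day 0 sets and 2 of 11 in day 11 replicate 2.

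Within the identity, cells of cluster 3 were set against cells of clusters 0 and 2 together (19 against 16 cells in the first batch and 29 against 45 in the second). Of 5517 genes, 450 were higher in cluster 3 in both batches by at least 2-fold (8.16%) and 628 lower (11.4%), and the median gene differed by -0.13 and -0.16 log2. Against cluster 2 alone 1259 genes were higher and 296 lower, and 15 of the 20 genes named at the ends kept their direction. The contrast follows clusters drawn on these genes, so it describes how uHF-I cells differ among themselves and was not tested. Pairs of values are levels in cluster 3 and then in clusters 0 and 2.

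Some duct genes and differentiation genes were higher in the cluster 3 cells. Of the upper follicle and sebaceous duct list, 3 of 12 were higher past 2-fold in both batches and 0 lower. A gene was compared where either side reached a level of 10 in each batch. Teddm3, counted with Krt79 and Cst6, reached it in cluster 3 alone in both batches, so it could only come out higher. Krt79 had a level of 17804 against 3334 in the first batch and 6430 against 1261 in the second, and was present in 100% of cluster 3 cells in both. Cst6 had 34494 against 2425 and 12939 against 2147. Both markers thus differed more than 4-fold inside the identity, by 2.42 and 2.35 log2 for Krt79 and by 3.83 and 2.59 for Cst6. Sprr1a, a precursor of the cornified envelope, was found in 47.4% against 0 of 16 cells and in 86.2% against 22.2%. Krt10, the suprabasal keratin, had 318 against 34.2 and 367 against 71.2. Calm4, a calmodulin-like protein of differentiating epidermis, had 1431 against 178 and 2660 against 896. Of the suprabasal list 5 of 10 measured genes were higher and 0 lower (medians 2.06 and 1.26), and of the cornified envelope list 2 of 5 were higher, Sprr1a and Spink5.

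Proteases and their inhibitors moved with them. Of kallikreins and cathepsins, 5 of 11 were higher and 0 lower, with Klk7, a serine protease of desquamation, at 1413 against 260 and 918 against 292. Ctsd, a lysosomal aspartic protease, had 3669 against 1109 and 774 against 370. Spink5, the inhibitor of kallikreins, was found in 26.3% against 0 of 16 cells and in 51.7% against 4.44%. Cstb had 3970 against 1620 and 19355 against 6369. Crabp2, a retinoic acid binding protein, had 951 against 151 and 1299 against 413. Of the epidermal transcription factors 4 of 13 were higher, Klf4, Grhl1 and Ovol1 among them. Klf4 was found in 31.6% against 6.25% of cells in the first batch and 82.8% against 71.1% in the second.

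Basal genes were lower in the cluster 3 cells. Krt5 had 997 against 3897 in the first batch and 257 against 2436 in the second, and was found in 26.3% against 87.5% and 20.7% against 91.1% of cells. Krt15 had 4494 against 9093 and 1807 against 6711. Col17a1, a hemidesmosome collagen, was found in 5.26% against 68.8% and 27.6% against 66.7%. These genes anchor basal cells to the basement membrane or belong to their keratin network, and 7 of the 14 measured basal genes were lower and 0 higher, Itgb1, Itgb4, Itga3 and Lama3 among them. First-batch values of some rest on few cells, since Itga3 and Lama3 were found in 1 of the 16 cells of clusters 0 and 2 and Itgb4 in 2. Itga3, Itgb4 and Lama3 passed the filter on level through clusters 0 and 2 alone in both batches, so they could only come out lower. Itgb1 and Col17a1 passed it that way in the first batch, so they could not have been counted as higher. Krt14 was not among the lower genes, with differences of 0.59 and 0.12 and a share of 100% and 89.7% in cluster 3.

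Outer bulge and replication genes were also lower in cluster 3. Of outer bulge genes 5 of 7 measured were lower and 0 higher (Postn, Cxcl14, Nfatc1, Fst and Lhx2), with Cxcl14, a chemokine, at 45.7 against 202 and 16.9 against 399. Replication genes were lower in 7 of 11, but a gene was compared where either side reached a level of 10 in each batch. All 7 (Mcm2, Mcm3, Mcm7, Rrm2, Tk1, Tyms and Ung) passed through clusters 0 and 2 alone, so they could only come out lower. The same held for the bulge genes Lhx2 and Postn. Of the 16 first-batch cells of those clusters, 1 had Mcm2, and the same number had Mcm3, Rrm2, Tk1 or Lhx2. Tyms and Ung were each found in 2 of them, and Mcm7 and Postn each in 3. Of the 5 factors of the list around Myc and Id3 that the study names, 2 were lower and 0 higher past 2-fold in both batches. Myc, a growth-related transcription factor, had 31.0 against 106 and 131 against 417, and Id3, an inhibitor of basic helix-loop-helix factors, had 49.6 against 404 and 69.7 against 499. Hspb1 differed by 0.47 and 1.37 log2, while Atf3 (-1.65 and 1.29) and Gata3 (0.77 and -0.97) differed in direction between batches. S100a6, a calcium-binding protein, had 473 against 1829 and 657 against 2745. Immediate early and dissociation stress genes did not move with the contrast, with 0 of 16 past 2-fold in both batches in either direction.

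The other 3 markers differed less inside the identity. Defb6 differed by 0.92 and 1.39 log2, Krt17 by 0.81 and 0.90 and Alox12e by 0.84 and 0.29, and Defb6 was found in 84.4% or more of the cells on both sides in both batches. Gata6 differed by 0.88 and 1.10 and was found in 3 of 19 against 2 of 16 cells and 6 of 29 against 6 of 45. Lrig1, a marker of the junctional zone stem cells, went in opposite directions in the batches (1.61 and -1.87), as did Krt6a (1.99 and -3.20), Itga6 (1.37 and -2.52) and Ivl (-0.18 and 3.38).

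The ends of this ranking, by the rule used to name genes, were taken by genes seen in few cells. Bicdl2, Klk6, Pla2g5, Ly6k, Ephx3, Agpat4, Ripk2, Sipa1l1 and Sh3gl2 joined Sprr1a at the top, and apart from Sipa1l1 each was found in 1 or 2 of the 19 cluster 3 cells of the first batch. At the low end stood Mrps2, Tada1, Cbr2, Hspbp1, Ackr4, Trnau1ap, Dcxr, Ppa1, Pthlh and Mgmt. Apart from Sprr1a, each gene at either end reached a level of 10 on a single side in both batches, so its direction was fixed. Pthlh, which encodes parathyroid hormone-related protein, was found in 0 of 19 and 0 of 29 cluster 3 cells, which allows up to 15.8% and 10.3%, against 2 of 16 and 10 of 45 cells of clusters 0 and 2.

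**Figure D4:**
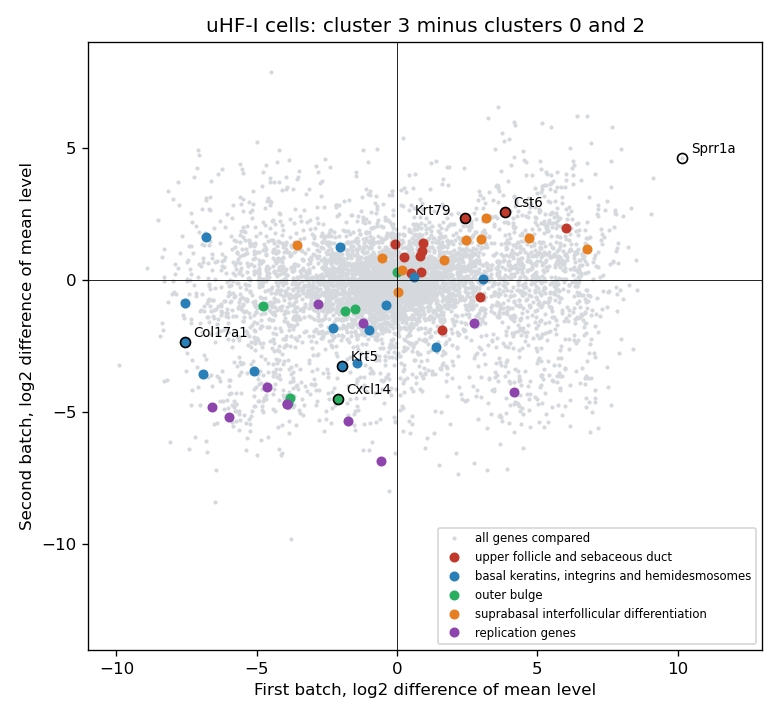
Log2 difference of the mean level between uHF-I cells of cluster 3 and of clusters 0 and 2 in the first batch (horizontal axis) and the second (vertical axis), 1 point per gene compared, with 5 gene lists in colour and 6 genes named. Krt79 (2.42 and 2.35), Cst6 (3.83 and 2.59) and Sprr1a (10.16 and 4.62) lie at the upper right, and Krt5 (-1.97 and -3.24), Col17a1 (-7.56 and -2.35) and Cxcl14 (-2.12 and -4.48) at the lower left, with 1 added before the log.

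The next question was whether lin+ uHF-I cells of wounds differed from those of unwounded skin. This compares measurements the identity did not fix, although a cell that lost its follicle genes would no longer be called uHF-I. The levels of 11 sets entered limma with the batch as covariate, and late wounds (days 9 and 11) were set against day 0 over 8365 genes with 4 residual degrees of freedom. At an adjusted p (Benjamini-Hochberg) under 0.05, limma called 0 genes (0%), with 387 at an unadjusted p under 0.05, and edgeR's quasi-likelihood test on read sums called 1 of the same genes, with 181 unadjusted. The median gene differed by -0.04.

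Malat1, an abundant nuclear non-coding RNA, was the gene that edgeR called. Its level in lin+ uHF-I cells was 8339 and 30348 in the replicates of day 0, 7504 on day 6, 1098 and 8138 on day 9, then 1375 and 6076 on day 11. Each wound set lay below the day 0 set of its batch. The log2 difference of late wounds was -2.47 ± 0.25 (SE), with an adjusted p of 0.0645 by limma, and edgeR's adjusted p was 0.0122. Over 14 alternatives the direction held in 14 and the adjusted p (limma or edgeR, Benjamini-Hochberg) ran from 0.0122 to 1.0. Other lin+ cells were also lower in wounds, with 11108 and 21516 on day 0, 7127 on day 6, 1671 and 7119 on day 9, then 1164 and 4799 on day 11, and the difference between the late wound effects in uHF-I and IFE-B cells was 0.46 ± 0.30 (limma, adjusted p = 0.729).

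The 5 markers had no called change. Krt79 stood at 12691 and 4645 in the day 0 replicates, 1688 on day 6, 10820 and 6492 on day 9, then 6725 and 1804 on day 11, with the late sets on both sides of day 0 (-0.54 ± 0.50). Defb6 stood at 5724 and 16112, then 19234, then 3187 and 19793, then 2912 and 8023 at the same times (-0.67 ± 0.47). Cst6 stood at 24395 and 8596, then 6665, then 16001 and 8418, then 164 and 3354 (-2.34 ± 1.95), and each late set lay below the day 0 set of its batch. Alox12e was the one marker that was higher in each late set than in the day 0 set of its batch, at 2049 and 1693 on day 0, 1881 on day 6, 10128 and 3286 on day 9, then 5284 and 2116 on day 11 (1.20 ± 0.45, limma adjusted p = 0.900). Krt17 differed by 0.28 ± 0.34 and Gata6 by -3.44 ± 2.02, the latter with levels of 180 and 65.6 on day 0, 17.0 on day 6, and 0.08, 63.7, 4.18 and 28.8 in the late sets.

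**Figure D5:**
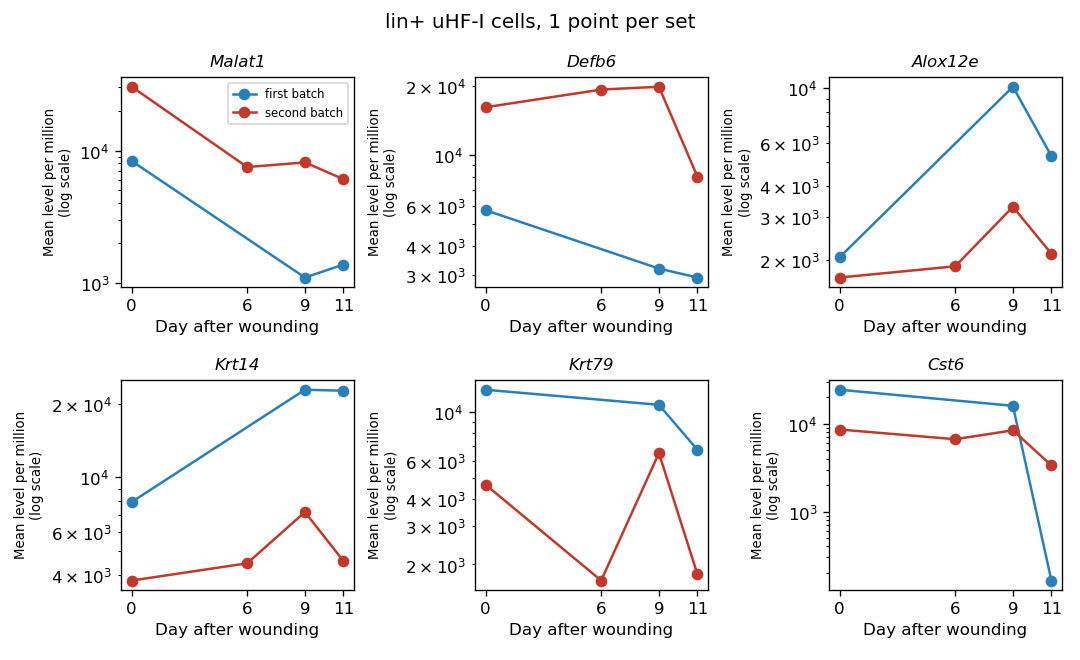
Mean level in lin+ uHF-I cells (vertical axes, log scale) by day after wounding (horizontal axes) for 6 genes, 1 point per set, first batch in blue and second in red, with lines joining sets of a batch. Malat1 is highest on day 0 in both batches (8339 and 30348), Alox12e is lowest there (2049 and 1693), and Cst6 is lowest on day 11 (164 and 3354).

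Keratin and alarm genes of the late sets were also below the threshold. Krt14 stood at 7926 and 3782 on day 0, 4448 on day 6, 22825 and 7211 on day 9, then 22622 and 4548 on day 11 (1.02 ± 0.31, limma adjusted p = 0.900). S100a6 stood at 872 and 678, then 2354, then 2009 and 1589, then 1680 and 3112 (1.36 ± 0.39, limma adjusted p = 0.900). All wound sets of both genes lay above the day 0 set of their batch, without passing the test.

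By lists, 690 of all 8365 genes (8.25%) had each late set above the day 0 set of its batch and 1028 (12.3%) had each below. Of the upper follicle genes 5 of 12 lay above (Alox12e, Klk10, Atp6v1c2 and Teddm3 among them) and 4 of 12 below (Cst6, Gata6, Plet1 and Lrig1), with a median of -0.13. Of 6 measured markers of stem cell compartments all had negative estimates and 3 lay below in each late set (Lrig1, Plet1 and Krt15), with a median of -1.09. Plet1, a surface protein of the junctional zone, had 718 and 1065 on day 0, 378 on day 6, 344 and 328 on day 9, then 463 and 720 on day 11. Lipid barrier genes had 4 of 10 above (Alox12e, Abca12 and Fabp5 among them) and a median of 1.95. The 6 connexins, which form gap junctions, all had positive estimates (median 2.43). Immediate early and dissociation stress genes lay above in 1 of 16 and below in 2 of 16, with negative estimates in 14 (median -0.84). None of these genes was called.

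Day 6 against day 0, which shares the day 0 sets with the comparison above, gave 0 calls in limma among 8365 genes (0%), with 186 at an unadjusted p under 0.05, and edgeR called 0 with 93. Malat1 differed by -2.15 ± 0.37 and Krt79 by -1.43 ± 0.74 (limma, both adjusted p = 1.0). MHC class II genes, which present antigen, had positive estimates in 6 of 6 (median 3.40, against 0.12 for all genes). Cd74, their invariant chain, stood at 37.1 and 141 on day 0 and 460 on day 6, and later at 90.7, 35.0, 376 and 666, so its late sets lay on both sides of day 0 in the second batch.

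The lineages were compared within uHF-I cells of wounds. Here lin- sets of at least 3 cells came from the second batch alone and held 5, 3 and 4 cells, so their means rest on few cells. limma called 0 of 8365 genes (0%), with 551 at an unadjusted p under 0.05, edgeR called 0 with 241, and the median gene differed by 0.67. Aldh3a1, an aldehyde dehydrogenase, had the smallest p. It stood at 453, 1512, 276, 1885 and 350 in lin+ sets of days 6, 9, 9, 11 and 11, and at 294, 0 and 0.108 in lin- sets of days 6, 9 and 11. The values 1512 and 1885 are first-batch levels, in another unit than the rest. The difference was 4.13 ± 0.60 (limma adjusted p = 0.742), and the lin+ range overlapped the lin- set of day 6. Without day 6, limma called this gene (adjusted p = 0.00867), and it kept its direction in 14 of 15 alternatives with adjusted p from 0.0043 to 1.0. With sets of at least 5 uHF-I cells, which leaves day 6 as the one lin- set of wounds, the difference was -0.08. In lin- uHF-I cells of day 0 replicate 1 it stood at 1417. Alox12e was higher in lin+ cells by 1.66 ± 0.44 and Defb6 by 1.06 ± 0.46, while Krt79 differed by -0.09 ± 0.49 (limma, adjusted p = 0.742, 0.742 and 0.983). The lin- sets, all of the second batch, had 406 to 957 of Alox12e, and the lowest lin+ wound set of that batch had 1881. The share of all genes with such a gap was not counted.

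Last, the late wound effect in lin+ uHF-I cells was set against that in lin+ IFE-B cells. limma called 0 of 9489 genes (0%), with 733 at an unadjusted p under 0.05 and 3 residual degrees of freedom, and edgeR was not run for it. Ccl27a, a chemokine of keratinocytes that draws skin-homing T cells, had the smallest p. In uHF-I cells it stood at 2610 and 6964 on day 0, 13895 and 8682 on day 9, then 5444 and 4734 on day 11. In IFE-B cells it stood at 5822 and 7718, then 5517 and 3168, then 3809 and 1952. Each late IFE-B set lay below the day 0 set of its batch, while uHF-I sets lay above in 3 of 4, and the effects differed by 2.14 ± 0.32 (limma adjusted p = 0.621, 10 of 10 alternatives in the same direction). Gm13306, a near-identical copy of Ccl27a, differed by 2.14 ± 0.39, so reads may be split between them. Krt79 differed by -2.96 ± 0.90 and Ctsd by -2.85 ± 0.63, with the effect lower in uHF-I (limma, both adjusted p = 0.632).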

How the data were processed

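Single keratinocytes of mouse back skin were sorted into plates and sequenced by Smart-seq2 (full-length cDNA, 1 library per cell, no molecular identifiers). Per the labels, the authors trimmed reads with Trimmomatic 0.27, a step that the study's methods do not give. Per both sources they aligned reads to GRCm38 (mm10) with STAR 2.2, assigned them to genes with featureCounts and analysed cells in Seurat, for which the labels name version 3.2.2 and the methods a later one. In the deposited combined table the authors gave first-batch cells as read counts and second-batch cells as RPKM, although the table is named for counts. Gene lengths were found from first-batch cells deposited in both units, and multiplying by them turned 99.97% of second-batch values under 200 reads into whole reads (tolerance 0.02). Batch was the annotation's own column, lineage and day came from the labels, and the deposited identities and clusters were taken as they stand. The remaining 1048 columns of single cells in other deposited tables, natural log values among them, were not used.

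Each cell was scaled to a total of 1000000 and averaged by set, and 316 genes with differing symbols between batches were merged, which left 19611 genes with values in both. A level is not comparable between genes except as TPM. Set means of at least 3 uHF-I cells, scaled by the median of ratios within a batch, were tested as log2(level + 1) with limma 3.58.1 (trend, batch covariate, Benjamini-Hochberg adjustment) in R 4.3.3, for genes at a level of 10 or more in at least 2 sets. edgeR 4.0.16 on recovered reads was the alternative. The lineage difference was averaged over day 6 and late wounds. Shares were compared by exact permutation tests over sets in SciPy 1.17.1, with exact 95% binomial intervals. Intervals and upper limits for 0 cells (3 cells of the total) cover counting error only. Scripts were tested on simulated data.

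The members and gene lists were chosen with earlier results of these data known. Genes named were up to 12 at each end of the comparison with other cells and up to 10 at each end of the cluster contrast, ranked by the smaller of both batches' log2 differences among genes of 1 direction with a level of 20 or more, up to 4 members of each list with the largest differences, and genes the study names. For limma the rule took up to 10 genes at each end past the threshold, of which there were 0. Predicted gene names were left out. Some genes that the rule names are not reported here. Malat1, S100a6, Aldh3a1, Ccl27a, Gm13306, Apoe, Ly6d, Cd74 and the genes of the list counts beyond 4 members were named after their values were seen. Same-numbered lin+ and lin- sets came from the same skin, which pairs them by design, although their deviations did not correlate (-0.253 to -0.0467 over 4 mouse sets). Alternatives covered the value added, the filter, scaling, set size, weights, the tool, the block, the comparison cells and leaving out each mouse set.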

Additional observations from a re-analysis of the deposited data

Results flagged for a closer look

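In 30 groups of sets checked for a set far from the others, 3 stood apart, where chance gives about 1.5. For Defb6, the uHF-I cells of lin- day 0 replicate 1 exceeded the other cells of their set by 9.10 log2, against 3.18 to 3.93 in the other 3 sets of the first batch. In the second batch, lin- day 9 replicate 2 stood at 12.5 for Defb6, against 1.21 to 3.64 in the other 6 sets. For Alox12e, lin- day 6 stood at 4.57, against 1.51 to 2.66 in the other 6 sets of the second batch. These 3 sets held 3, 3 and 5 uHF-I cells, so a mean can rest on 1 cell, and in lin- day 9 replicate 2 only 1 of the 3 had Defb6. The part of these cell numbers in the values was not tested.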

How the results depend on the processing

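The lineage difference in share was 19.3 to 22.3 percentage points when 1 mouse set was left out (exact permutation p = 0.0312 each), 31.9 with all 3 upper follicle identities, and 21.2 with no replicate block (exact permutation p = 0.000583). These p-values also treat mouse sets that share mice as independent. For uHF-I against other cells, the 23 higher and 2148 lower genes became 184 and 589 over all cells of a batch, 199 and 460 over lin+ cells alone, and 116 and 916 in sets of at least 8 uHF-I cells. With 10 added before the log 461 were lower, and against IFE-B cells alone 80 were higher. Without 1 mouse set, 21 to 36 were higher and 1844 to 2280 lower. Against cluster 2 alone, cluster 3 had 1259 genes higher and 296 lower. limma called 0 genes in each wound and lineage comparison, but with no filter on low values it called 19 for late wounds (all lower), 545 for day 6 and 883 for lineage. For late wounds, weighting sets by their uHF-I cells called 1 gene and edgeR called 1, Malat1 (adjusted p = 0.0133 and 0.0122). Leaving out 1 mouse set gave 0 to 1 call for lineage. In the paired fit with the mouse set as replicate block, limma called 0 genes for lineage, with 576 at an unadjusted p under 0.05. The fit without the batch term used TPM in place of levels and tested 8132 genes. It called 0 for late wounds, with 217 at an unadjusted p under 0.05. The number of calls stayed at 0 in both fits, but the second changed the unit along with the batch term.

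Single genes whose late wound difference changed sign did so when 1 mouse set was left out, and the cause was not tested. Krt17 ran from -0.39 (without day 0 replicate 2) to 0.96, Itga6 from -0.87 (without day 0 replicate 1) to 2.23 with -0.04 without day 11 replicate 2, and Id3 from -1.30 (without day 0 replicate 1) to 1.77 with -0.47 without day 9 replicate 1. Krt6a ran from -1.01 (without day 0 replicate 1) to 2.37, with -0.64 and -0.70 without the day 11 replicates, and Ivl from -4.17 to 0.0825 (without day 0 replicate 1). The limits are 2 unwounded lin+ sets, 3 lin- wound sets of 3 to 5 uHF-I cells, and 4 residual degrees of freedom.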
